A study of Mus musculus with 24 samples.

Results

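Olig1, Olig2, Sox10, Pdgfra, Cspg4, Gpr17, Nkx2-2, Myrf and Enpp6 are 9 genes of the oligodendrocyte lineage among the 55385 genes of a count table, taken by gene name. The table holds RNA-seq counts from the hippocampus (HIP) and entorhinal cortex (EC) of 6 Ts65Dn mice and 6 wild-type (wt) littermates, so each of the 12 mice gave 1 library per region. All mice were males aged 5 to 6 months on a mixed F1 B6C3B background. Ts65Dn mice carry a freely segregating extra minichromosome, in which the stretch of mouse chromosome 16 (Mmu16) from Mir155 to Zbtb21 is joined to Mmu17 sequence from next to the centromere. Both parts are therefore present in 3 copies, while the wt littermates have 2 copies of each. Olig1 and Olig2 lie in the Mmu16 segment and are triplicated. The other 7 genes lie on other chromosomes and have 2 copies in both genotypes.

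Oligodendrocytes make the myelin of the brain and arise from oligodendrocyte precursor cells (OPCs), which go on dividing in the adult. Olig2 and its neighbour Olig1 encode basic helix-loop-helix transcription factors that are active throughout the lineage, and Sox10, a high-mobility-group factor, acts with them. Pdgfra, the receptor for platelet-derived growth factor A, and Cspg4, the NG2 proteoglycan, are used as markers of OPCs. Gpr17, an orphan-type G protein-coupled receptor, and Nkx2-2, a homeodomain factor, are used in cells committed to differentiate. Myrf is a membrane-bound factor that switches on myelin genes, and Enpp6, a choline-specific phosphodiesterase, marks newly formed oligodendrocytes.

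Library totals ranged from 23128589 to 40476492 counts, and all 9 genes passed the filter on low counts in every comparison. In the mouse whose library in each region is labelled Ts65Dn replicate 3, the median of 74 other protein-coding genes of the Mmu16 segment was at the wt level in both regions. The main genotype and region results of the members are therefore also given without that mouse. The region labels were checked with marker genes, and 6 of 6 hippocampal markers were higher and 6 of 6 cortical markers lower in the wt HIP than in the wt EC (edgeR, adjusted p under 0.05). Choroid plexus markers varied widely between HIP libraries, with a summed level of 50.8 to 5040.0 CPM (counts scaled to the library total) in Ts65Dn and 85.5 to 4792 CPM in wt. In the EC, their sum was 8.04 to 48.9 CPM. In whole tissue, fewer cells of a type and less RNA per cell cannot be told apart.

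In GRCm38, Olig2 (ENSMUSG00000039830) is on the plus strand at chr16:91225457-91228677, and Olig1 (ENSMUSG00000046160) follows it on the same strand at chr16:91269772-91271933. Sox10 is at chr15:79154908-79165240, Pdgfra at chr5:75152292-75198215 and Cspg4 at chr9:56865033-56899870. Nkx2-2 is at chr2:147177546-147194243, Myrf at chr19:10208272-10240748 and Enpp6 at chr8:46986887-47096762. Gpr17 is ENSMUSG00000052229. All are protein-coding, and their counts are over exons.

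Because Olig1 and Olig2 are related genes, it was checked whether a read could fit both. The longest run common to the transcripts of both was 17 bases long, well below the read length of 50 bases, and it lies in the coding part of each. It is shown, in capitals throughout, because it is the full extent of exact identity between these genes in any 1 place.
Olig1 and Olig2, shared run: AAGATCAACAGCCGCGA
No 50-base stretch of Olig2, Sox10, Cspg4, Myrf or Enpp6 occurred in a transcript of another gene. The share was 5.11% in Olig1 (with Gm15966 on the opposite strand), 1.87% in Gpr17 (with Lims2 on the opposite strand), 4.93% in Pdgfra and 8.04% in Nkx2-2 (with Nkx2-2os on the opposite strand). Gm15966 had 0 to 3 counts per library and Nkx2-2os 0 to 17, whereas Lims2 had 153 to 400. The strand setting of the counting is not given in the sources used here, so reads of Lims2 within the shared 188 bases cannot be told apart from those of Gpr17.

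Promoter windows were given by RefSeq (GRCm38.p6) for 5 of the 9 genes, each from 250 bases before to 50 bases after the start. The 3 windows below are those of the triplicated Olig2 and of Pdgfra and Enpp6, which lay near opposite ends of the regional comparison described later. Capitals mark the E-box CANNTG, the motif that basic helix-loop-helix factors bind, and the Sox motif ACAATG or its reverse complement CATTGT.
Olig2, chr16:91225300-91225599, plus strand: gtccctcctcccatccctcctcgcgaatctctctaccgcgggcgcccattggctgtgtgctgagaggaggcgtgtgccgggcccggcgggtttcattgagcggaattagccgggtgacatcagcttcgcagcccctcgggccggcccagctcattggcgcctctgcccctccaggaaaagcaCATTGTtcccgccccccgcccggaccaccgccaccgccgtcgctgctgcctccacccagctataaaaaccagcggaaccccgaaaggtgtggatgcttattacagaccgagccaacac
Pdgfra, chr5:75152001-75152300, plus strand: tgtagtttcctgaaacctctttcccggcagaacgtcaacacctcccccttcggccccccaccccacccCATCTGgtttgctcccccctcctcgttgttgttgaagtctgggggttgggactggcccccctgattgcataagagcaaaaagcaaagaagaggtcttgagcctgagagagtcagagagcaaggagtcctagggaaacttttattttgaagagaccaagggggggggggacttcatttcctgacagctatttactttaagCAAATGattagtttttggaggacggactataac
Enpp6, chr8:46986637-46986936, plus strand: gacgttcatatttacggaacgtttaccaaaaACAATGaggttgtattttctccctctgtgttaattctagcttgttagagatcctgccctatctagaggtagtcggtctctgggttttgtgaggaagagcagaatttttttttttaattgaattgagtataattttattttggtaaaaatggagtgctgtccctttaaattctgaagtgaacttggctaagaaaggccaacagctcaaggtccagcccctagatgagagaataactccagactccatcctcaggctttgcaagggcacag
The Pdgfra window held 2 E-boxes and no Sox motif, while the Olig2 and Enpp6 windows each held 1 Sox motif and no E-box. Of the windows not shown, that of Nkx2-2 held 3 E-boxes and that of Cspg4 neither motif. Searched in the same way, 72.3% of 32851 RefSeq promoter windows of this length held an E-box and 12.6% a Sox motif. The motif CTGGCAC or GTGCCAG, linked to Myrf, was in none of the members' 5 windows and in 5.01% of all windows. The share of G and C was 65.0% in the Olig2 window, 51.0% in that of Pdgfra and 40.3% in that of Enpp6.

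Levels were compared between genes as CPM per kilobase of annotated exon. In the wt HIP, Olig1 had the highest level, 41.1 ± 2.97 (SD, n = 6), followed by Sox10 at 14.7 ± 1.30. Gpr17, Olig2 and Myrf came next, from 10.0 to 10.6 CPM per kilobase on average. Their libraries overlapped, so their order is not resolved. Pdgfra had 7.06 ± 0.590 CPM per kilobase, and its range overlapped those of Olig2 and Myrf. Enpp6 (3.10 ± 0.402), Cspg4 (1.61 ± 0.111) and Nkx2-2 (0.927 ± 0.149) followed, with no overlap between neighbours. In the wt EC, Olig1 again had the highest level, at 25.6 ± 2.33 CPM per kilobase, but the next genes were Gpr17 at 9.74 ± 0.963 and Pdgfra at 8.44 ± 0.900, which overlapped. Olig2 (6.02 ± 0.737) and Sox10 (5.84 ± 0.757) overlapped, as did Myrf (2.49 ± 0.567) and Cspg4 (2.04 ± 0.206). Enpp6 and Nkx2-2 had the lowest levels there, 0.734 ± 0.202 and 0.495 ± 0.0967 CPM per kilobase. Nkx2-2 rested on 28 to 126 counts per library, the fewest of the 9 genes, whereas Olig1 had 1274 to 4252.

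The first comparison was between genotypes. Olig1 and Olig2 were higher in Ts65Dn than in wt in both regions, and none of the other 7 genes passed the test in either region. In the HIP, the lowest, median and highest Olig1 levels were 102, 129 and 153 CPM in Ts65Dn against 79.3, 88.6 and 96.7 CPM in wt. In the EC they were 69.4, 83.0 and 89.6 CPM in Ts65Dn against 49.5, 54.1 and 64.0 CPM in wt. Every Ts65Dn library was thus above every wt library of its region. The share of all genes that separate in this way was not counted. By edgeR's quasi-likelihood test, the log2 fold change of Olig1 was 0.51 ± 0.09 (± standard error, adjusted p = 0.0167) for the HIP. For the EC it was 0.54 ± 0.08 (adjusted p = 0.00519).

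Olig2 was present at lower levels but with the same separation. The lowest, median and highest levels were 34.4, 37.2 and 43.2 CPM in the Ts65Dn HIP against 18.9, 26.4 and 32.6 CPM in the wt HIP. In the EC they were 19.3, 23.3 and 24.2 CPM in Ts65Dn against 12.5, 15.8 and 17.4 CPM in wt. No Ts65Dn library overlapped the wt libraries of its region, again without a count of such genes over the whole table. By edgeR, Olig2 had a log2 value for Ts65Dn over wt of 0.51 ± 0.11 (± standard error, adjusted p = 0.0383) for the HIP and 0.56 ± 0.09 (adjusted p = 0.00680) for the EC.

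**Figure D1:**
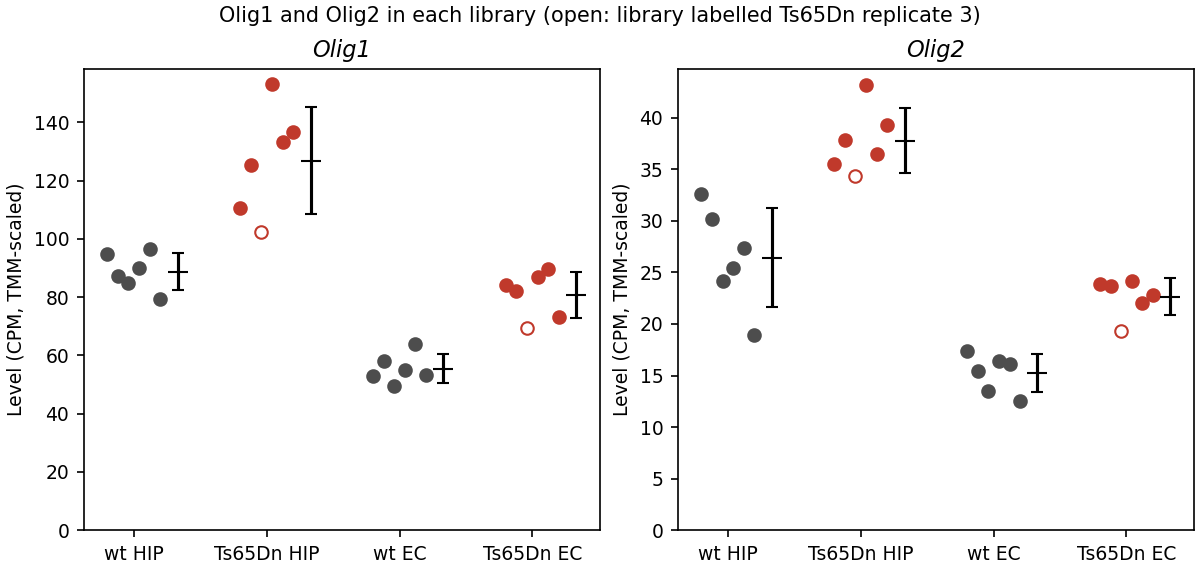
Level of Olig1 (left) and Olig2 (right) in CPM, 1 point per library, by genotype and region, with the mean and SD of the 6 libraries beside each group. Open points are the library labelled Ts65Dn replicate 3, which had the lowest Ts65Dn value in each of the 4 sets (102, 69.4, 34.4 and 19.3 CPM), still above the highest wt value.

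As background, 0.542% of 17355 genes tested in HIP libraries passed as higher in Ts65Dn and 0.501% as lower. For EC libraries, 1.15% of 17049 genes passed as higher and 1.35% as lower. Against this, 2 of the 9 members were higher and 0 lower in each region. Both members called are those with an extra copy. As fold changes, Olig1 was 1.43 times the wt level in the HIP (95% confidence interval 1.25 to 1.62) and 1.45 times in the EC (1.29 to 1.62). Olig2 was 1.43 times the wt level in the HIP (1.21 to 1.67) and 1.48 times in the EC (1.30 to 1.68). All 4 intervals hold 1.5, the ratio of 3 copies to 2. These fits include the mouse labelled Ts65Dn replicate 3. The log2 values without that mouse are given further below, without intervals.

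Each mouse was then left out in turn. Both Olig1 calls held in 12 of 12 such fits, with adjusted p from 0.00150 to 0.0487 for the HIP (edgeR), and so did the Olig2 call of the EC. The Olig2 call in the HIP held in 3 of 12 such fits. Its adjusted p by edgeR was 0.0552 without wt replicate 2, 0.0994 without wt replicate 3, 0.0820 without wt replicate 4 and 0.0741 without wt replicate 5. It was 0.0684 without Ts65Dn replicate 1, 0.0637 without Ts65Dn replicate 2, 0.0866 without Ts65Dn replicate 4, 0.0531 without Ts65Dn replicate 5 and 0.0909 without Ts65Dn replicate 6. The log2 fold change of Olig2 stayed between 0.43 and 0.58 in these fits. Among wt HIP libraries, Olig2 spread from 18.9 CPM in replicate 6 to 32.6 CPM in replicate 1, a coefficient of variation of 18.2%, against 8.34% in the Ts65Dn HIP.

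Olig1 and Olig2 were set beside the rest of the Mmu16 segment. Of its protein-coding genes, 42 of 79 tested passed as higher in Ts65Dn for the HIP and 43 of 77 for the EC, with 0 lower. Their median log2 fold change was 0.50 for the HIP (quartiles 0.43 and 0.58) and 0.51 for the EC (quartiles 0.41 and 0.56). Ranked from the highest, Olig1 was number 36 and Olig2 number 37 of 79 HIP genes, and Olig1 was number 27 and Olig2 number 19 of 77 EC genes. In the HIP both genes thus lay near the middle of the segment, and in the EC Olig2, at 0.5644, was just above the upper quartile of 0.5586. Without the library labelled Ts65Dn replicate 3, 58 of 80 HIP genes and 60 of 78 EC genes of the segment passed as higher and 0 as lower, with medians of 0.57 and 0.57. Olig1 was then number 41 of 80 and 37 of 78, and Olig2 number 50 of 80 and 29 of 78.

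The nearest protein-coding genes tested on each side gave similar values. Downstream, Ifnar2, a subunit of the type I interferon receptor, showed log2 fold changes of 0.60 (HIP, adjusted p = 0.00577) and 0.51 (EC, adjusted p = 0.0229), by edgeR. Il10rb, a subunit of the interleukin 10 receptor, had 0.60 (adjusted p = 0.0219) and 0.42 (adjusted p = 0.0624). Ifnar1, the other subunit of the type I interferon receptor, had 0.51 (adjusted p = 0.0218) and 0.52 (adjusted p = 0.0136). These 3 genes lie between chr16:91372783 and chr16:91507441. Upstream, Paxbp1 had 0.47 (HIP, adjusted p = 0.00731) and 0.53 (EC, adjusted p = 0.0877), and Synj1, a synaptic phosphoinositide phosphatase, had 0.59 (adjusted p = 0.0335) and 0.55 (adjusted p = 0.0259). The uncharacterised 4932438H23Rik, the closest of them upstream, passed in neither region, with 0.44 (adjusted p = 0.489) and 0.39 (adjusted p = 0.459). Without the library labelled Ts65Dn replicate 3, Paxbp1 (0.62, adjusted p = 0.0302) and Il10rb (0.49, adjusted p = 0.0169) also passed for the EC, and 4932438H23Rik still did not in either region.

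Single libraries were then compared with the mean of the 6 wt libraries of their region. Over 74 other protein-coding genes of the segment, the median fold was 1.44 to 1.53 in 5 of the 6 Ts65Dn HIP libraries and 1.46 to 1.52 in 5 of the 6 Ts65Dn EC libraries. In the library labelled Ts65Dn replicate 3 it was 1.01 (HIP) and 1.005 (EC). Olig1 was nevertheless 1.15 times and Olig2 1.30 times the wt mean in the HIP of that mouse, and 1.25 and 1.27 times in its EC. Of the 74 genes, 18 (HIP) and 10 (EC) had a fold at least that of Olig1 in that mouse, and 10 and 8 at least that of Olig2. In the same mouse, 22 (HIP) and 17 (EC) of the 74 genes were above the highest wt library, compared with 61 to 71 genes in the other Ts65Dn libraries.

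**Figure D2:**
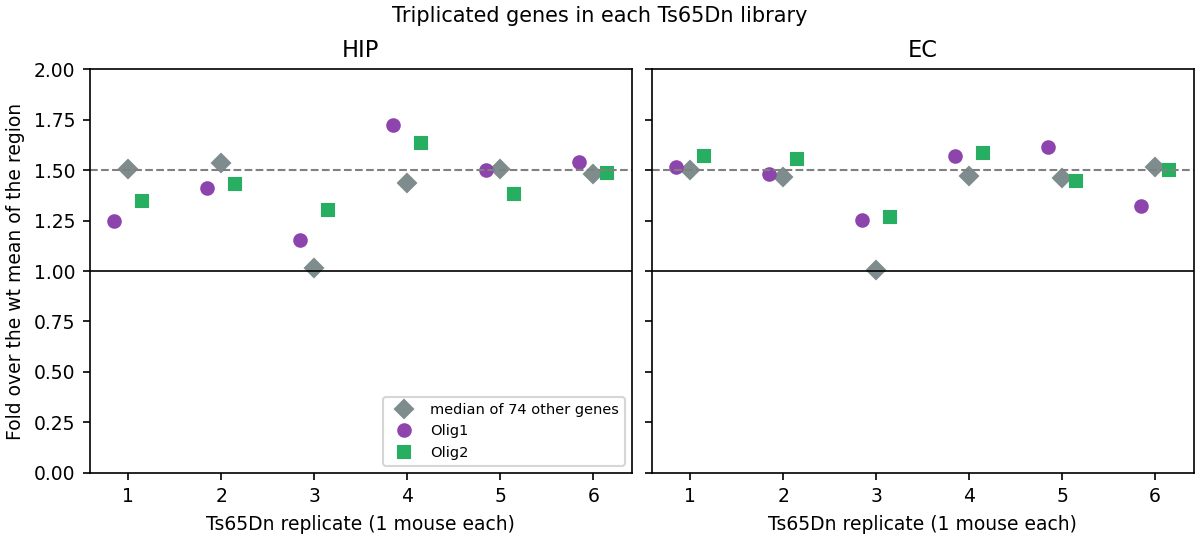
Fold over the wt mean of the same region (linear axis) in each of the 6 Ts65Dn mice, HIP on the left and EC on the right, for Olig1, Olig2 and the median of 74 other protein-coding genes of the Mmu16 segment. The solid line is at 1 and the dashed line at 1.5. In replicate 3 the median is at 1.01 and 1.005, while Olig1 and Olig2 are between 1.15 and 1.30.

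Without that mouse, the log2 fold change of Olig1 was 0.57 (HIP, adjusted p = 0.00150) and 0.58 (EC, adjusted p = 0.000448), by edgeR. For Olig2 it was 0.54 (HIP, adjusted p = 0.0342) and 0.61 (EC, adjusted p = 0.00113). Neither direction nor call changed for these 4 values.

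Olig1 and Olig2 were also expressed relative to Sox10, a lineage gene with 2 copies, in the same library. The log2 ratio of Olig1 to Sox10 was 1.38 ± 0.202 for Ts65Dn and 0.99 ± 0.143 for wt HIP libraries (SD, n = 6 each), a difference of 0.39 (two-sided exact permutation test over 924 splits, p = 0.00649). In the EC it was 2.10 ± 0.276 in Ts65Dn and 1.64 ± 0.168 in wt, a difference of 0.46 (exact permutation p = 0.0108). The ratio of Olig2 to Sox10 differed by 0.42 (HIP, exact permutation p = 0.0130) and by 0.49 (EC, exact permutation p = 0.00649). Adjusted over these 4 tests, p was 0.0130 for each by the exact permutation test. The differences correspond to folds of 1.31 to 1.41, and the groups overlapped in each. Without the library labelled Ts65Dn replicate 3, the Sox10 differences were 0.40 (Olig1) and 0.39 (Olig2) for HIP libraries and 0.39 and 0.42 for EC libraries, with exact permutation adjusted p from 0.0260 to 0.0281. With Pdgfra in place of Sox10 the differences were 0.60 to 0.72, each with adjusted p = 0.00216, the smallest that the exact permutation test can give. With Myrf in place of Sox10 they were 0.31 to 0.37 and none passed, with exact permutation adjusted p from 0.0606 to 0.156.

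The members with 2 copies were then taken by role. Sox10, the partner of Olig2, had lowest, median and highest levels of 40.02, 47.6 and 61.3 CPM in the Ts65Dn HIP against 39.8, 44.2 and 50.04 CPM in wt, and of 12.7, 19.4 and 23.1 CPM in the Ts65Dn EC against 15.5, 17.6 and 21.4 CPM in wt. By edgeR, its log2 fold change was 0.12 (HIP, 95% confidence interval -0.10 to 0.35, adjusted p = 0.627) and 0.10 (EC, -0.18 to 0.37, adjusted p = 0.750). The groups overlapped in both regions.

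Of the OPC surface genes, Pdgfra showed log2 fold changes of -0.10 (HIP, -0.23 to 0.03, adjusted p = 0.489) and -0.14 (EC, -0.38 to 0.11, adjusted p = 0.569), by edgeR. Its medians were 65.6 CPM (Ts65Dn) and 68.3 CPM (wt) for HIP, and 74.7 and 84.3 CPM for EC libraries. In each region, 3 of 6 Ts65Dn libraries were below every wt library, while 1 in the EC was above them all. How often other genes of the whole table do so was not counted. Cspg4 showed 0.05 (HIP, -0.09 to 0.20, adjusted p = 0.750) and 0.13 (EC, -0.07 to 0.33, adjusted p = 0.510). The intervals of both genes leave out a fold of 1.5 in either direction in both regions.

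Among the genes of committed cells, Gpr17 showed log2 fold changes of -0.07 (HIP, -0.25 to 0.10, adjusted p = 0.726) and 0.05 (EC, -0.17 to 0.27, adjusted p = 0.849), by edgeR. Nkx2-2 had lowest, median and highest levels of 2.49, 3.31 and 3.71 CPM in the Ts65Dn HIP against 1.86, 2.74 and 3.04 CPM in wt. There, 5 of 6 Ts65Dn libraries were above every wt library, a pattern that was not counted over all genes. The log2 fold change of 0.29 did not pass (-0.01 to 0.58, adjusted p = 0.356). The remaining library was the one labelled Ts65Dn replicate 3, without which the value was 0.35 (adjusted p = 0.198). For the EC it was -0.04 (-0.40 to 0.32, adjusted p = 0.931).

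Myrf, the factor of the myelin genes, showed log2 fold changes of 0.16 (HIP, -0.03 to 0.35, adjusted p = 0.428) and 0.21 (EC, -0.11 to 0.54, adjusted p = 0.490), by edgeR. Enpp6 had lowest, median and highest levels of 10.5, 14.5 and 21.1 CPM in the Ts65Dn HIP against 16.2, 19.9 and 22.6 CPM in wt. In 4 of 6 Ts65Dn libraries it was below every wt library, a pattern that was not counted over all genes. Of all genes tested in the HIP, 2572 of 17355 had an unadjusted p under 0.05 by edgeR. For Enpp6, the log2 fold change of -0.39 (-0.74 to -0.04) had an unadjusted p of 0.0322 by edgeR. It did not pass after adjustment (adjusted p = 0.288). Without the library labelled Ts65Dn replicate 3 it was -0.47 (adjusted p = 0.162). In the EC it was -0.16 (-0.53 to 0.21, adjusted p = 0.679). Without that library, none of the 7 members with 2 copies passed in either region by edgeR, and their log2 values ran from -0.47 to 0.35 (HIP) and from -0.14 to 0.21 (EC).

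**Figure D3:**
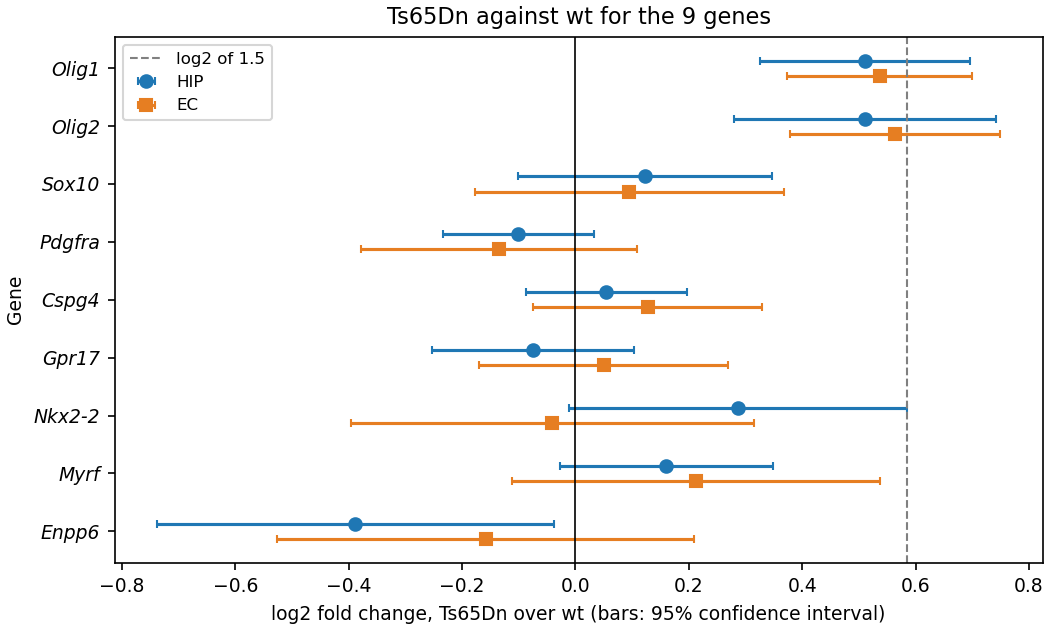
Log2 fold change, Ts65Dn over wt, of the 9 genes (rows) in the HIP (circles) and EC (squares), with 95% confidence intervals from edgeR, 6 mice per genotype. Olig1 and Olig2 lie between 0.51 and 0.56 with intervals that include the dashed line at the log2 of 1.5, and the other 7 genes lie between -0.39 and 0.29.

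The wider lineage was followed with fixed lists that exclude the 9 members. In neither region did edgeR call any of 12 other OPC genes, 11 tested genes of committed and premyelinating cells, 18 genes of mature oligodendrocytes and myelin, 17 tested transcription and chromatin regulators or 18 genes of growth factor and Notch signalling. At an unadjusted p under 0.05 there were 2, 1, 1, 0 and 3 such genes for the HIP and 3, 1, 0, 6 and 1 for the EC. Over all genes tested, 2572 of 17355 (HIP) and 3235 of 17049 (EC) had an unadjusted p under 0.05 by edgeR. Of the genes on these 5 lists, DESeq2 called 1, the regulator Tcf4, which was lower in the Ts65Dn EC by that tool (log2 fold change -0.17, adjusted p = 0.0108). The medians of these lists lay between -0.04 and 0.07 on the log2 scale for the HIP and between -0.06 and 0.07 for the EC, where the median of all genes tested was 0.00 in each. Of the markers of other cell types, P2ry12, a purinergic receptor of microglia, passed as lower in Ts65Dn in both regions (HIP log2 fold change -0.27, adjusted p = 0.0422, EC -0.45, adjusted p = 0.0226), by edgeR. It was 1 of 6 microglial markers, and the other 5 did not pass in either region. DESeq2 also called P2ry12 in both regions, and further called the astrocyte glutamate transporter Slc1a3 lower in the HIP (-0.19, adjusted p = 0.000595) and EC (-0.24, adjusted p = 0.0293). In the EC it called the astrocyte connexin gene Gja1 (-0.21, adjusted p = 0.0149) and the synaptic vesicle gene Syt1 (-0.16, adjusted p = 0.00277) lower, and in the HIP the collagen gene Col1a1 higher (0.89, adjusted p = 0.0362). None of these 4 genes passed by edgeR. The median log2 fold change was -0.11 (HIP) and -0.17 (EC) for the 6 astrocyte markers and 0.52 and -0.09 for the fibroblast markers. For the choroid plexus markers it was 0.25 and -0.35. These medians were farther from 0 than that of any lineage list, and their part in the members' values was not tested. Without the library labelled Ts65Dn replicate 3, edgeR called no gene of the 5 lineage lists in either region and P2ry12 in both, and the cortical marker Rorb passed as lower in the EC (-0.46, adjusted p = 0.0422).

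The second comparison was between regions of the same mouse. In wt mice, 6 of the 9 genes were higher and 2 lower in the HIP than in the EC, where 31.0% of 17196 genes tested were higher and 30.3% lower. Myrf and Enpp6 differed most. Myrf had lowest, median and highest levels of 68.8, 89.3 and 92.0 CPM in the wt HIP against 14.7, 22.0 and 26.5 CPM in the wt EC, and Enpp6 16.2, 19.9 and 22.6 CPM against 3.23, 4.52 and 6.82 CPM. The log2 difference, HIP over EC, was 2.03 for Myrf (standard error 0.10, adjusted p = 9.27e-08) and 2.09 for Enpp6 (standard error 0.12, adjusted p = 2.85e-07), from edgeR with a term for the mouse.

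The transcription factors of the lineage differed less. Sox10 was higher in the HIP by 1.33 on the log2 scale (standard error 0.06, adjusted p = 4.64e-08), Nkx2-2 by 0.91 (0.13, adjusted p = 0.000145), Olig2 by 0.78 (0.06, adjusted p = 1.59e-06) and Olig1 by 0.68 (0.04, adjusted p = 5.77e-07). Each was higher in the HIP in 6 of 6 wt mice. The intervals of Olig1 and Olig2 (0.58 to 0.78 and 0.65 to 0.92) were below those of Sox10 (1.20 to 1.46) and Myrf (1.81 to 2.26).

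The OPC surface genes differed in the other direction. Pdgfra had a log2 difference of -0.26 (standard error 0.05, adjusted p = 0.00186) and was lower in the HIP in 6 of 6 wt mice. Cspg4 had a log2 difference of -0.35 (standard error 0.08, adjusted p = 0.00352) and was lower in 5 of 6. Gpr17 did not pass, with 0.11 (95% confidence interval -0.01 to 0.23, adjusted p = 0.106), and was higher in the HIP in 4 of 6 wt mice.

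**Figure D4:**
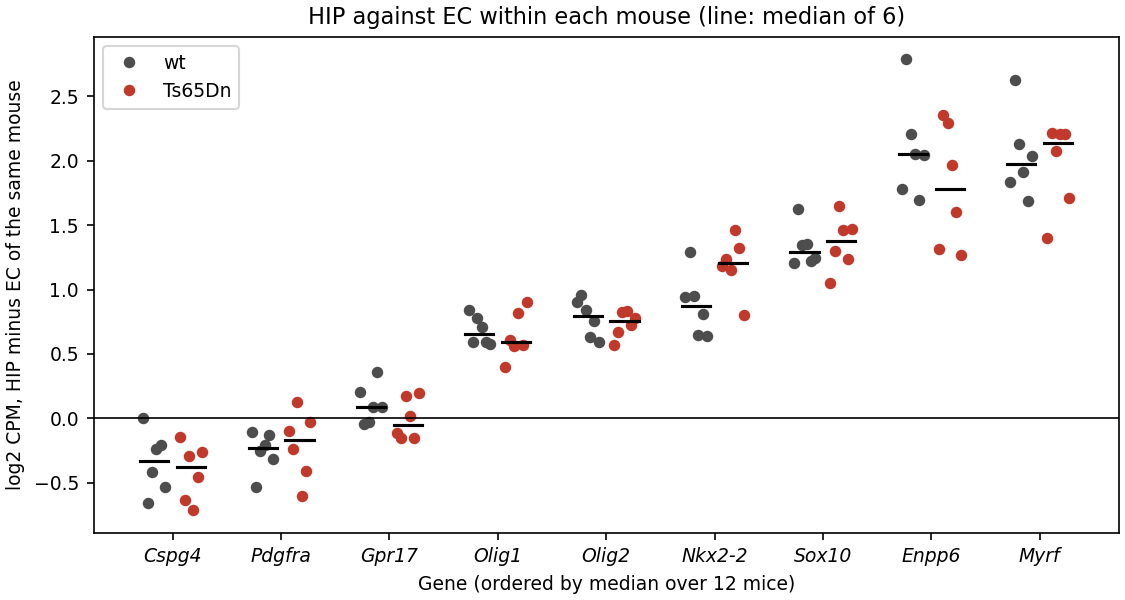
Log2 CPM in the HIP minus that in the EC of the same mouse, 1 point per mouse (6 wt, 6 Ts65Dn) and a line at each median, for the 9 genes ordered by their median. Cspg4 and Pdgfra lie mostly below 0, Gpr17 around 0, and Enpp6 and Myrf highest, with wt medians of 2.05 and 1.98.

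In Ts65Dn mice, 6 of the 9 genes were higher in the HIP and 1 lower, where 26.6% of 17314 genes tested were higher and 25.7% lower. The log2 differences were 1.96 for Myrf, 1.81 for Enpp6, 1.36 for Sox10, 1.22 for Nkx2-2, 0.73 for Olig2 and 0.64 for Olig1, each in 6 of 6 mice. Cspg4 was lower, with -0.42 (adjusted p = 0.00137, edgeR). Pdgfra had -0.21 and did not pass by edgeR (adjusted p = 0.0590). It passed with DESeq2 (adjusted p = 0.0353) and in edgeR with no filter on low counts (adjusted p = 0.0147). With 1 Ts65Dn mouse left out, Pdgfra passed in only 1 of 6 edgeR fits, that without the library labelled Ts65Dn replicate 3 (-0.28, adjusted p = 0.0176). Its adjusted p in these fits reached 0.194, without Ts65Dn replicate 5. Gpr17 had -0.01 (adjusted p = 0.911). Without the library labelled Ts65Dn replicate 3, 8 of the 9 members passed, 6 as higher and 2 as lower. With any 1 Ts65Dn mouse left out, 7587 to 8769 genes of the whole table passed in this comparison.

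Whether the region difference itself depended on genotype was tested with an interaction term over all 24 libraries. By edgeR, 0 of the 9 members and 0 of 18109 genes passed (0% called), as with DESeq2, and 0 members and 742 genes had an unadjusted p under 0.05. Nkx2-2 had the largest interaction of the 9, 0.31 on the log2 scale (-0.05 to 0.68), and Enpp6 the lowest, -0.29 (-0.75 to 0.17). For Olig1 the interaction was -0.04 (-0.21 to 0.14) and for Olig2 -0.05 (-0.22 to 0.12). The genotype fold of these genes therefore did not differ detectably between regions, and the intervals leave out interactions beyond about 0.22 on the log2 scale in either direction.

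The fixed lists of the wider lineage were compared in the same way. In wt mice, 18 of 18 genes of mature oligodendrocytes and myelin were higher in the HIP, with a median log2 difference of 2.00, against a median of 0.00 over all genes tested. Opalin (2.48) and Mobp (2.42), both of mature oligodendrocytes, had the largest values. Of the committed and premyelinating genes, 9 of 11 were higher and 0 lower (median 0.56), among them Bcas1 at 2.19 and 9630013A20Rik at 2.00. Of the other OPC genes, 3 of 12 were higher and 7 lower (median -0.24), with Susd5 at -1.57, Pcdh15 at -0.57 and Vcan at 0.53. Several of these, such as the matrix genes Vcan and Ncan (-0.50), are also made by other brain cells. In Ts65Dn mice, 18 of 18 mature genes and 9 of 11 committed and premyelinating genes were higher, while 2 of 12 other OPC genes were higher and 7 lower.

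Of the other transcription and chromatin regulators, 9 of 17 were higher and 3 lower. Chd7, a chromatin remodeller (1.59), and Zeb2 (1.21) were highest, and Hes5, a Notch target (-1.30), was lowest. Of the signalling genes, 7 of 18 were higher and 8 lower. Erbb3, a neuregulin receptor, had 1.78, and Nrg1, which encodes a neuregulin, had -1.49. Other cell types moved with region too. In the wt HIP, 6 of 6 microglial markers, 6 of 6 endothelial and pericyte markers and 4 of 7 neuronal markers were lower, and 4 of 4 choroid plexus markers were higher. The medians of these lists were -0.34, -0.34, -0.23 and 4.31 on the log2 scale. Of 5 fibroblast markers, 1 was higher and 0 lower (median -0.40), and of 6 astrocyte markers, 3 were higher and 2 lower (median 0.10). The part of these cell types in the members' differences, among them those of Pdgfra and Cspg4, was not tested.

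The variation that genotype and region do not account for was described last, by subtracting the mean of each of the 4 groups from log2 CPM and correlating genes over the 24 libraries. The libraries come in pairs from 12 mice and share normalization, so these correlations are given without a test. Myrf followed myelin genes most closely, with Pearson's r of 0.962 for Mbp, 0.953 for Ermn and 0.953 for Mobp, the highest of 18109 genes. With the summed level of the 18 mature genes, r was 0.967 for Myrf and 0.805 for Enpp6, but -0.526 for Pdgfra and -0.737 for Cspg4. Pdgfra and Cspg4 had r of 0.630 with each other and 0.762 and 0.686 with the summed level of the other OPC genes. In contrast, Olig1 had r of 0.0240 with the mature genes and 0.417 with the OPC genes, and Olig2 had 0.413 and 0.0539. With the summed choroid plexus markers, which varied widely between HIP libraries, r was -0.533 for Olig1 and -0.212 for Olig2, and the part of this tissue in the Olig1 levels was not tested.

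Olig1 and Olig2 had r of 0.594 with each other. The genes most like Olig1 were Fkbp1a (0.783), Tpm3 (0.770) and Fyn (0.764), a kinase used in oligodendrocyte differentiation. Those most like Olig2 were Bambi-ps1 (0.734), Tfdp1 (0.723) and Cxcl12 (0.717). Sox10 was most like Zfp488 (0.851), a zinc finger factor of the same lineage, then Alkbh1 (0.830) and Mfsd2b (0.778). For Pdgfra they were Lingo2 (0.793), Sema6d (0.783) and Matn4 (0.782), and for Cspg4 they were Tmem17 (0.813), Tmem35a (0.776) and Pif1 (0.755). Gpr17 was most like Lhpp (0.806), 2900052N01Rik (0.791) and the triplicated Ifnar1 (0.787). Nkx2-2 was most like Fam168a (0.805), Tmem114 (0.804) and Ufd1 (0.800), and Enpp6 most like Plekhg3 (0.828), Insc (0.825) and Anln (0.811).

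Some of these correlations rested on the mouse labelled Ts65Dn replicate 3. Over the other 22 libraries, r fell from 0.490 to 0.243 for Olig1 with Sox10, from 0.411 to 0.0939 for Olig1 with Gpr17 and from 0.685 to 0.439 for Sox10 with Gpr17. Among the genes most like a member, the largest fall was from 0.791 to 0.617 for Gpr17 with 2900052N01Rik, followed by that of Olig1 with Tpm3. Olig1 with Fyn fell from 0.764 to 0.662 and Gpr17 with Ifnar1 from 0.787 to 0.702. Over the same 22 libraries r was 0.538 for Olig1 with Olig2, 0.622 for Pdgfra with Cspg4, 0.779 for Myrf with Enpp6 and 0.965 for Myrf with Mbp. With the summed mature genes it was 0.967 for Myrf and -0.753 for Cspg4, and for Olig1 with the choroid plexus markers -0.554.

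**Figure D5:**
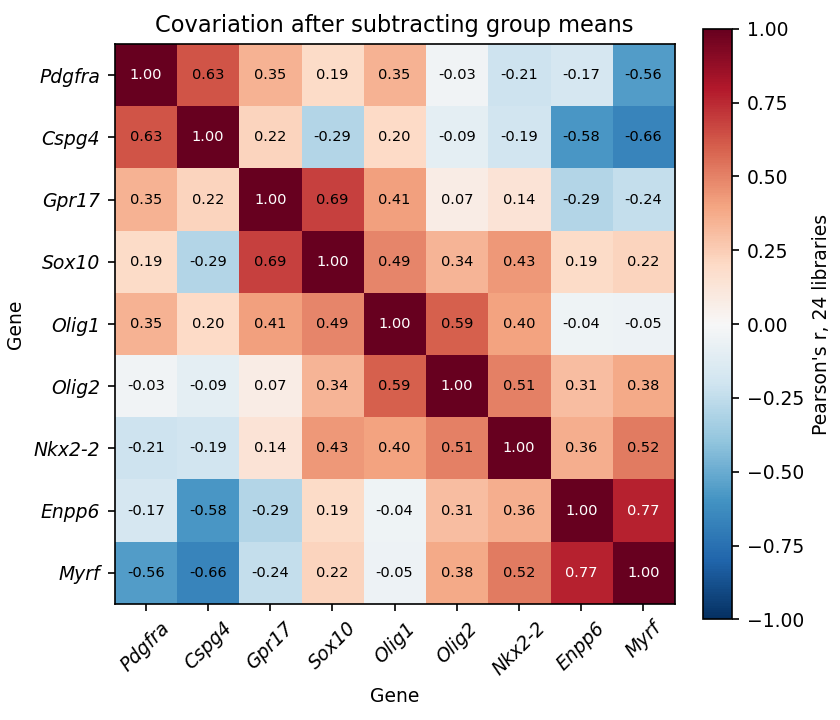
Pearson's r of log2 CPM between the 9 genes over 24 libraries after the mean of each genotype and region group was subtracted, with red for positive and blue for negative values. Myrf and Enpp6 (0.771) and Pdgfra and Cspg4 (0.630) form the ends of the ordering, and Myrf has -0.661 with Cspg4 and -0.555 with Pdgfra.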

How the data were processed

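The authors deposited whole-number counts per gene from HTSeq, made from 50-base single-end reads aligned with Hisat2 to GRCm38, and bcl2fastq 2.17.1.14 and DESeq2 are named in the submitters' processing notes. The labels describe a stranded mRNA kit, whereas the methods describe a ribosomal RNA depletion kit and polyA RNA. The deposited comparison tables of the authors, which hold DESeq2 and FCROS fold changes and p-values, were not used. Depth was 23128589 to 40476492 counts per library. Of the 55385 IDs, 55144 (99.6%) matched GENCODE vM21, whose symbols and GRCm38 coordinates were used. No ID lacked a gene and no column belonged to another sample.

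Counts were tested with edgeR 4.0.16 (quasi-likelihood, TMM, filterByExpr, Benjamini-Hochberg adjustment over all genes tested, threshold 0.05), with TMM-scaled CPM as levels and a prior count of 2 for log2 CPM. Genotypes were compared within each region. HIP and EC were compared within each genotype, and in the interaction over all 24 libraries, with the mouse as a block. The labels give the same mouse number to both regions, and deviations from group means correlated by 0.178 to 0.426 within a mouse. Alternatives were DESeq2 1.42.0, its size factors in edgeR, a minimum of 10 counts in every library, no filter, a replicate block and leaving out each mouse. Ratios were tested by exact permutation in SciPy 1.17.1 and Python 3.11.15. For genotype, p-values are set against the spread between mice. For region and the interaction, they are set against the spread among mice of the difference between HIP and EC. The fits were tested on simulated data.

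The 9 genes, the lists and the tests were chosen with earlier results of these data known. The genes named were the 9 members, up to 5 called genes of each list for genotype and up to 4 for region, the 3 genes most like each member, and the 3 nearest protein-coding genes tested on each side of Olig2 and Olig1. Tcf4, Slc1a3, Gja1, Syt1, Col1a1 and Rorb were named after their values were seen. Of the 9 members, 5 had a RefSeq promoter window (GRCm38.p6).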

Additional observations from a re-analysis of the deposited data

Results flagged for a closer look

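In 36 groups of 6 libraries (9 genes in 4 groups), 2 had a library that stood apart, with a gap to its neighbour over the range of the group above Dixon's 95% critical value for 6 values. By chance about 1 in 20 groups would. Both were the wt HIP library of replicate 6. There, Nkx2-2 was at 1.856 CPM (gap over range 0.695) and Myrf at 68.85 CPM (0.739), each the lowest of the group. That library also had the lowest Olig1, Olig2 and Enpp6 levels of the wt HIP, 79.3, 18.9 and 16.2 CPM. Their part in the comparisons was not tested beyond leaving out that mouse.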

How the results depend on the processing

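Of the members' log2 values under alternatives that kept all mice, 194 kept their direction and their side of the threshold, 2 were lost and 2 were gained. The 2 lost were those of Olig1 and Olig2 in the HIP under a replicate block, with 0.50 (adjusted p = 0.0746) and 0.53 (adjusted p = 0.122) by edgeR, so that the count of members called there was 0 in place of 2. Same-numbered Ts65Dn and wt libraries correlated by -0.198 to 0.153 (HIP) and -0.0812 to 0.166 (EC), and 1 of 6 in each region correlated best with its own number. These correlations over all genes cannot settle whether the numbers pair the mice, because a pairing that touched few genes would not show in them. With 1 mouse left out, the count called in the HIP ranged from 1 to 2, as Olig2 was lost in 9 of 12 fits. The differences of the ratios with Myrf in place of Sox10 were 0.34 for Olig1 and 0.37 for Olig2 (HIP) and 0.31 for Olig1 and 0.35 for Olig2 (EC). The cause was not tested. Signs changed only in values that had not passed, each with 1 mouse left out, which ranged from -0.115 to 0.0262 for Nkx2-2 in the EC and from -0.0493 to 0.0247 for Gpr17 between regions in Ts65Dn. The interaction ranged from -0.0328 to 0.0854 for Sox10, -0.0202 to 0.14 for Pdgfra, -0.14 to 0.0442 for Myrf and -0.0901 to 0.0113 for Olig1. Over all genes, 181 (HIP) and 426 (EC) were called, against 589 and 1098 by DESeq2, 135 and 275 with no filter, 29 and 36 with the replicate block, and, with 1 mouse left out, 54 (without Ts65Dn replicate 6) to 318 (without the library labelled Ts65Dn replicate 3) and 90 (Ts65Dn replicate 1 left out) to 685 (Ts65Dn replicate 6 left out). The interaction called 37 genes with no filter. Nkx2-2, with 28 to 126 counts, is the member that depth limits most.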
